A study of Mus musculus with 2 samples.

Results

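A set of 10 genes tied to the passage of a vomeronasal sensory neuron (VSN) from axon growth to its mature state was followed from Neurod1 precursors to mature neurons. They are 10 of the 32285 genes counted and were chosen by name, without a cut on a measured value but with earlier results of these data known. Gap43 encodes a growth-cone phosphoprotein used as the marker of immature VSNs, and Omp encodes olfactory marker protein, the marker of mature VSNs. Stmn1, Stmn2, Stmn3 and Stmn4 are the stathmins, which bind tubulin dimers and regulate microtubule assembly. Crmp1, Dpysl3 and Dpysl5 belong to the collapsin response mediator proteins (CRMPs), which relay semaphorin signals to the cytoskeleton, and Ncam1 encodes the neural cell adhesion molecule.

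Whole vomeronasal organs (VNOs) of male C57 BL/6J wild-type mice at postnatal day 60 were dissociated, frozen and run on 10x Genomics droplets as 2 libraries. The mice received no treatment, 5 organs were pooled into the suspensions, and the labels do not say which animals went into which library, so p-values measure the spread between 2 libraries only. Every group below is a cluster of cells within these libraries and shares genotype, sex and age.

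VSNs are replaced throughout life. Dividing progenitors give Neurog1+ and Neurod1+ precursors, which enter either the apical branch (V1R receptors, Gnai2, Meis2) or the basal branch (V2R receptors, Gnao1, Tfap2e). A young neuron of either branch extends an axon to the accessory olfactory bulb while it expresses Gap43, and later loses Gap43 and gains Omp.

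After quality control 10592 cells remained, 5694 in library 1 and 4898 in library 2, with medians of 6668 and 6650.5 unique molecular identifiers (UMIs) per cell. The neuron lineage held 1443 of them. It was re-clustered without the 10 genes and without 66 genes of 7 lists of growth, adhesion and maturation genes. None of these genes thus defined a group, although genes that vary with them did. The markers that named the groups, and the genes most like Gap43 and Omp described below, were not left out. The Neurod1 precursors were 209 cells, the immature apical neurons 209, the immature basal neurons 162, the mature apical neurons 545 and the mature basal neurons 105. Median UMIs per cell were 8875, 9074 and 8650.5 in these first 3 groups, against 13474 in mature apical and 17027 in mature basal neurons. A level is given throughout in CPM, the UMIs of the gene scaled to the same fixed total of UMIs in every group, in library 1 and then in library 2. Levels of different genes are not compared.

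The groups were named from markers, so the marker levels that follow describe the labels and are no independent check of them. Neurod1 stood at 1717 and 1650 CPM in the early precursors and at 547 and 481 CPM in the late ones, and at no more than 67.1 CPM in any immature or mature cluster. Between the immature branches, set against each other after the clusters had been seen, Meis2 was at 1975 CPM in apical and 35.9 CPM in basal neurons, Gnai2 at 1475 and 165 CPM, Gnao1 at 78.4 and 458 CPM, Tfap2e at 14.4 and 306 CPM, the summed V1R genes at 3180 and 273 CPM and the summed V2R genes at 42.2 and 1423 CPM. Bcl11b did not follow the labels, with 276 CPM in apical and 230 CPM in basal immature neurons. The apical marker Nrp2 was also raised in early immature basal neurons, and Tfap2e was not among the markers raised in the late ones. Of 8 markers of mature VSNs, 7 were raised in mature apical neurons. In mature basal neurons 3 were raised, Slc17a6, Ano2 and the V2R sum, and Snap25, Syt1, Umodl1 and Rtp1 were not. In the late immature basal cluster the V1R sum was 37.2 CPM in library 1 and 1528 CPM in library 2. Markers of other cell types were present in the groups. The 5 gland markers summed to between 378 and 1845 CPM, highest in immature basal neurons of library 1, and the 4 non-sensory epithelium markers to between 2062 and 2856 CPM in the basal groups against 1177 to 1302 CPM in the others. The 4 ciliated-cell markers summed to 266 and 284 CPM in precursors against 41.1 to 79.0 CPM elsewhere. The 5 fibroblast markers summed to 152 CPM in mature basal neurons of library 1 and to at most 34.0 CPM in every other sum. Their part in the results was not tested.

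Gap43 rose from the precursors into the immature neurons of both branches and then fell to low levels in mature neurons. Its level was 337 and 305 CPM in precursors, 1296 and 1423 CPM in immature apical neurons, 1277 and 1020 CPM in immature basal neurons, 103 and 78.4 CPM in mature apical neurons and 171 and 124 CPM in mature basal neurons. The libraries of the immature groups did not overlap with those of the precursors or of the mature groups. The rise was 4.36-fold in the apical branch (log2 fold change 2.12 ± 0.17 SE, adjusted p = 1.72e-06, edgeR quasi-likelihood test over all genes, 2 libraries) and 3.83-fold in the basal branch (1.94 ± 0.17, adjusted p = 3.59e-06). The fall on maturation was 14.3-fold in the apical branch (log2 fold change -3.84 ± 0.18, adjusted p = 3.21e-09) and 7.56-fold in the basal branch (-2.92 ± 0.18, adjusted p = 6.66e-08). These p-values compare clusters made from other genes of the same cells.

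Within these groups Gap43 climbed through the stages. It was at 23.9 and 78.5 CPM in progenitors, 136 and 109 CPM in early precursors and 498 and 420 CPM in late precursors. In the apical branch it stood at 1028 and 944 CPM in early and at 1780 and 2056 CPM in late immature neurons. In the basal branch the early immature neurons held 566 and 470 CPM, close to the late precursors, and the late immature neurons 2193 and 2060 CPM. Gap43 was thus highest in the late immature neurons of each branch. Early immature neurons of the apical branch were above those of the basal branch in both libraries, whereas the order of the late ones turned with the finer clusters described below for Omp. These stages were not tested against each other.

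**Figure D1:**
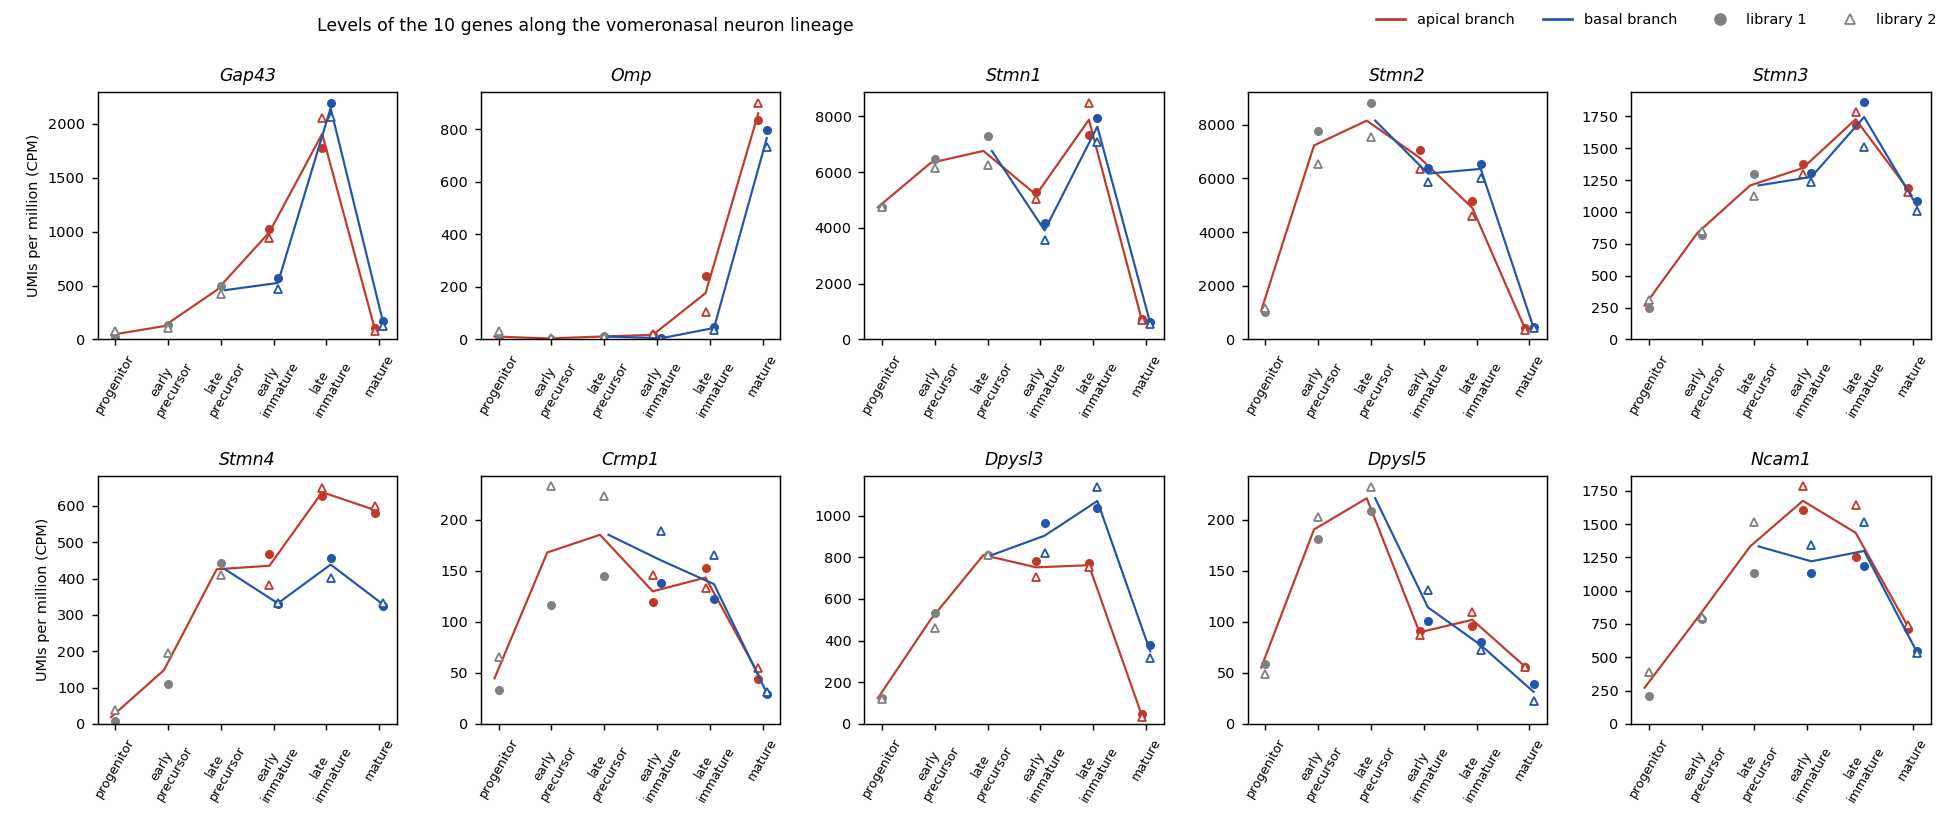
Levels of the 10 genes in CPM (y axis, a linear scale from 0 for each gene) across the stages of the lineage (x axis). Circles are library 1, triangles library 2, lines the sum of both libraries, with the apical branch in red and the basal branch in blue. Gap43 peaks in late immature neurons near 2000 CPM, Omp is highest in mature neurons, and Dpysl3 remains at 379 and 315 CPM in mature basal neurons against 47.6 and 35.1 CPM in mature apical ones.

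Omp moved the opposite way and later. It was at 7.40 and 8.99 CPM in precursors, which is the level in macrophage-like cells (7.81 and 9.33 CPM), a class that should lack it. It stood at 95.5 and 56.0 CPM in immature apical neurons, 24.4 and 14.3 CPM in immature basal neurons, 833 and 898 CPM in mature apical neurons and 798 and 730 CPM in mature basal neurons. The mature groups stood far above the immature ones in both libraries. The rise on maturation was 11.5-fold in the apical branch (log2 fold change 3.53 ± 0.19, adjusted p = 1.35e-08) and 38.6-fold in the basal branch (5.27 ± 0.24, adjusted p = 4.51e-09). Immature apical neurons already exceeded precursors by 3.28 ± 0.34 on the log2 scale (adjusted p = 1.63e-05). For immature basal neurons the difference was 1.40 ± 0.46 with adjusted p = 0.0545, which passed under 6 of the 10 alternatives that gave a test, among them the library as a block (adjusted p = 0.0107), and missed the threshold under the other 4, with 0.98 (adjusted p = 0.334) for thinned cells. Without library 1 the difference was 0.66.

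Most of the immature apical Omp came from the late cluster, with 240 and 104 CPM against 15.7 and 20.1 CPM in the early cluster. The late basal cluster held 47.8 and 36.1 CPM and the early basal cluster 6.20 and 2.73 CPM. A finer clustering of the lineage, chosen after seeing the data, separated 52 apical cells, 35 of them called mature in the main clustering, in which Gap43 was at 615 and 907 CPM and Omp at 764 and 453 CPM. The 55 remaining late immature apical cells had Gap43 at 2413 and 2206 CPM and Omp at 75.5 and 46.0 CPM. After thinning to 5000 UMIs both genes had a UMI in 33 of 49 cells of that cluster (67.3%, exact binomial 95% interval 52.5 to 80.1%) and in 10 of 48 of the remaining late immature apical cells (20.8%, 10.5 to 35.0%). The Omp level of the immature apical group depended on which side this cluster was placed. With the finer clusters the immature apical excess over precursors was 1.89 on the log2 scale (adjusted p = 7.06e-04).

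Omp is a single exon of 2144 bases at chr7:98143359-98145502 on the minus strand (GRCm38), and it lies inside the locus of Capn5, chr7:98121559-98178274, on the same strand. No base of the Omp exon belongs to an annotated exon of Capn5. Capn5 itself was at no more than 4.28 CPM in any stage and library. Gap43 lies at chr16:42248442-42340651 on the minus strand and overlaps no other protein-coding gene.

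Gap43 and Omp were also counted per cell. Each cell was thinned to 5000 UMIs before counting, since mature neurons were more deeply counted, and intervals are exact binomial 95% intervals that cover counting error only. Both genes had a UMI in 3 of 119 late precursors (2.52%), 10 of 127 early immature apical neurons (7.87%, 3.84 to 14%) and 24 of 65 late immature apical neurons (36.9%, 25.3 to 49.8%). In the basal branch it was 2 of 97 early immature neurons (2.06%) and 7 of 52 late immature neurons (13.5%, 5.59 to 25.8%). Without thinning the late immature shares were 41.7% of 72 apical and 23.2% of 56 basal neurons. The basal share came mostly from library 1, with 12 of 35 cells against 1 of 21 in library 2.

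Gap43 did not disappear from mature neurons. Both genes had a UMI in 144 of 535 mature apical neurons (26.9%, 23.2 to 30.9%) and in 24 of 101 mature basal neurons (23.8%, 15.9 to 33.3%) after thinning, and in 50.3% of 545 and 44.8% of 105 at full depth. Gap43 was counted in 5 of 693 thinned macrophage-like cells (0.722%, 0.235 to 1.68%), and in 0.974% of 1643 at a median of 4441 UMIs per cell. The intervals of mature neurons and macrophage-like cells were far apart. For Omp the share was 18 of 693 thinned macrophage-like cells (2.60%, 1.55 to 4.07%), and 3 of 97 thinned early immature basal neurons (3.09%) held an Omp UMI, which is within that background.

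**Figure D2:**
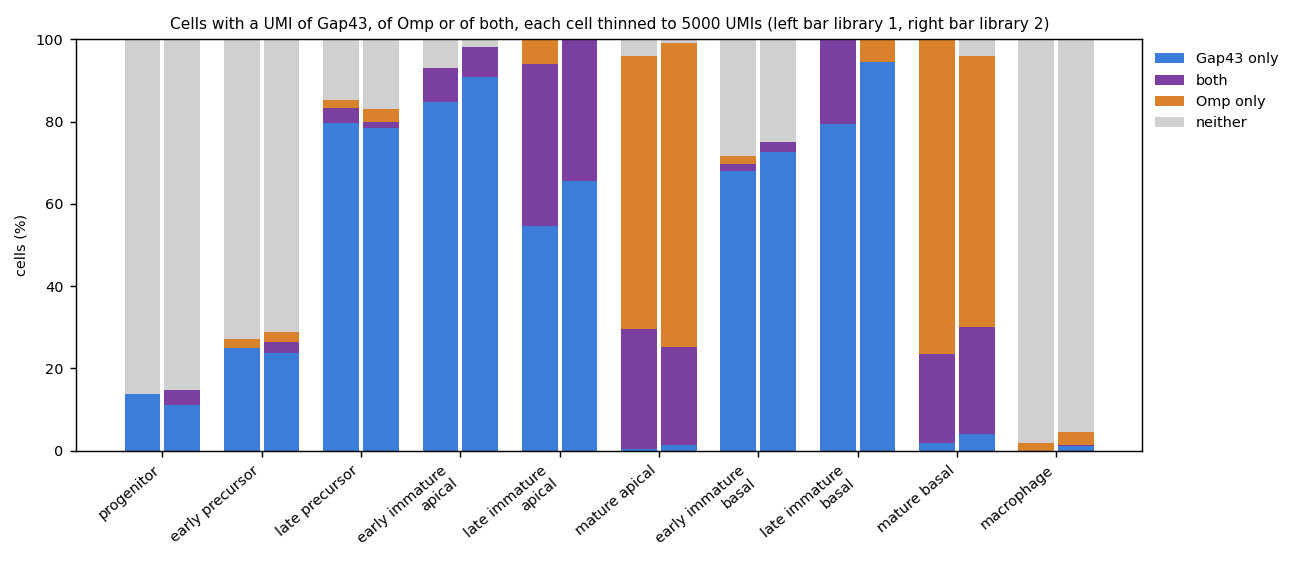
Share of cells (y axis, percent) in which a UMI of Gap43 only, of both genes, of Omp only or of neither was counted, by stage (x axis), with each cell thinned to 5000 UMIs. Left bars are library 1 and right bars library 2. Cells with both genes make up 36.9% of late immature apical neurons and 26.9% of mature apical neurons, and macrophage-like cells show the background.

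The stathmins divided into a pair that fell steeply on maturation and a pair that changed far less. Stmn1 encodes stathmin itself, Stmn2 the growth-cone protein SCG10, Stmn3 SCLIP and Stmn4 RB3. Since the family is conserved, the coding stretch that is most alike is shown with the bases that differ between any of the 4 genes in capitals. It spans 60 bases, of which 41 are the same in all 4 (GENCODE transcripts, GRCm38).
Stmn1: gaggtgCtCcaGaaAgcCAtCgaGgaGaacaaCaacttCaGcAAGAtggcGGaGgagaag
Stmn2: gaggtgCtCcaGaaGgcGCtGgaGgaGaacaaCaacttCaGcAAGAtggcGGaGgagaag
Stmn3: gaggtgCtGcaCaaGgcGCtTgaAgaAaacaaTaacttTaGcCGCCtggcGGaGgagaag
Stmn4: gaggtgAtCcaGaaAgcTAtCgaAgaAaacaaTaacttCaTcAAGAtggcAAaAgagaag
The genes lie at chr4:134468320-134473843 (Stmn1, plus strand), chr3:8509360-8561606 (Stmn2, plus), chr2:181306459-181314500 (Stmn3, minus) and chr14:66344296-66361680 (Stmn4, plus). The longest exact run shared by transcripts of 2 stathmins was 43 bases, for Stmn1 and Stmn2, and the others shared at most 21. Within this stretch Stmn1 shares 56 of the 60 bases of Stmn2, Stmn3 49 and Stmn4 48.

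Stmn1 was at 6923 and 6224 CPM in precursors, 6013 and 6530 CPM in immature apical neurons and 5819 and 4766 CPM in immature basal neurons. It then dropped to 719 and 696 CPM in mature apical neurons and to 638 and 563 CPM in mature basal neurons. Maturation brought a fall that was 8.51-fold in the apical branch (log2 fold change -3.09 ± 0.12, adjusted p = 8.86e-10) and 8.55-fold in the basal branch (-3.10 ± 0.13, adjusted p = 1.50e-09). Precursors and immature apical neurons overlapped (adjusted p = 0.922). Immature basal neurons differed from precursors by -0.22 ± 0.11 on the log2 scale (adjusted p = 0.233), and with the library as a block this passed (adjusted p = 0.00652). Within the branches Stmn1 was lower in early immature neurons (5278 and 5045 CPM apical, 4181 and 3551 CPM basal) than in late ones (7343 and 8492 CPM apical, 7925 and 7063 CPM basal), in both libraries.

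Stmn2 also fell steeply on maturation. Its levels were 8351 and 7157 CPM in precursors, 6373 and 5597 CPM in immature apical neurons, 6458 and 5926 CPM in immature basal neurons, 427 and 356 CPM in mature apical neurons and 454 and 427 CPM in mature basal neurons. No library of a mature group came near an immature one. The fall on maturation was 14.7-fold in the apical branch (log2 fold change -3.88 ± 0.14, adjusted p = 5.26e-10) and 13.6-fold in the basal branch (-3.77 ± 0.14, adjusted p = 8.25e-10). Immature neurons lay slightly below precursors, by 0.33 ± 0.12 on the log2 scale in the apical branch (adjusted p = 0.0856, and 3.39e-06 with the library as a block). In the basal branch the difference was -0.23 ± 0.12 (adjusted p = 0.236, and 6.86e-04 with the block). Unlike Gap43, Stmn2 was already at 7774 and 6531 CPM in early precursors and at 1031 and 1169 CPM in progenitors.

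Stmn3 rose on entry into either branch and fell back towards its precursor level in mature neurons. It was at 1085 and 1024 CPM in precursors, 1483 and 1506 CPM in immature apical neurons, 1549 and 1330 CPM in immature basal neurons, 1186 and 1155 CPM in mature apical neurons and 1089 and 1004 CPM in mature basal neurons. The rise was 1.46-fold in each branch (log2 fold changes 0.55 ± 0.11 and 0.54 ± 0.11, adjusted p = 0.00238 and 0.00278). On maturation it fell slightly, with log2 fold changes of -0.30 ± 0.10 in the apical branch (adjusted p = 0.0415) and -0.42 ± 0.11 in the basal branch (adjusted p = 0.00849). The apical fall was lost under 3 alternatives, among them the finer clusters, with adjusted p between 0.0585 and 0.176.

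Stmn4 separated the branches. Its level was 295 and 330 CPM in precursors, 525 and 498 CPM in immature apical neurons, 386 and 357 CPM in immature basal neurons, 582 and 599 CPM in mature apical neurons and 324 and 333 CPM in mature basal neurons. Apical neurons were above basal neurons in both libraries at both stages. It rose on entry into the apical branch (log2 fold change 0.76 ± 0.11, adjusted p = 1.92e-04). In the basal branch the rise of 0.35 ± 0.11 (adjusted p = 0.0425) was lost under 7 of the 10 alternatives that gave a test, with adjusted p between 0.0531 and 0.533, and was 0.20 without library 1 and 0.51 without library 2. Stmn4 did not fall detectably on maturation, with 0.26 ± 0.10 in the apical branch (adjusted p = 0.0601) and -0.14 ± 0.11 in the basal branch (adjusted p = 0.380). The apical value passed as a rise under 4 alternatives, with the library as a block (adjusted p = 0.00939), without the filter (0.0300), with mitochondrial shares of up to 10% (0.40, adjusted p = 0.0119) and with the finer clusters (0.54, adjusted p = 0.00199). Mature apical neurons exceeded mature basal ones 1.75-fold (log2 fold change 0.81 ± 0.10, adjusted p = 1.16e-04).

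The CRMPs did not share a course. Crmp1 was at 132 and 227 CPM in precursors, 131 and 140 CPM in immature apical neurons, 131 and 180.5 CPM in immature basal neurons, 44.3 and 54.99 CPM in mature apical neurons and 29.5 and 31.03 CPM in mature basal neurons. Library 2 was above library 1 in all 5 groups, and precursors and immature neurons overlapped. Its fall in mature neurons was 2.64-fold in the apical branch (log2 fold change -1.40 ± 0.21, adjusted p = 1.67e-04) and 4.91-fold in the basal branch (-2.30 ± 0.27, adjusted p = 1.98e-05).

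Dpysl5 was highest in precursors, at 197 and 221 CPM, and fell at each later step. It stood at 92.7 and 96.8 CPM in immature apical neurons, 91.8 and 111 CPM in immature basal neurons, 56.1 and 56.0 CPM in mature apical neurons and 39.4 and 22.7 CPM in mature basal neurons. The fall from precursors was 2.13-fold in the apical branch (log2 fold change -1.09 ± 0.17, adjusted p = 5.92e-04) and 1.95-fold in the basal branch (-0.96 ± 0.18, adjusted p = 0.00201). On maturation it fell again by 0.70 ± 0.17 on the log2 scale in the apical branch (adjusted p = 0.00702) and by 1.63 ± 0.22 in the basal branch (adjusted p = 8.34e-05). Dpysl5 was called lower on entry into both branches, as was Stmn2 with the library as a block.

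Crmp1 and Dpysl5 lie on the same chromosome, at chr5:37241940-37292133 and chr5:30711564-30799375, both on the plus strand, and the 3′ end of Crmp1 overlaps Evc on the opposite strand. Both are on in precursors and fall on maturation, and their RefSeq promoters are shown beside that of Stmn3, which largely stays on. The choice was set mostly by availability, since promoters of Gap43, Omp, Stmn1, Stmn2, Stmn4 and Ncam1 were not found. Dpysl3 was left out of the promoter search by name, so its promoter is not shown. Each run is the 250 bases before a RefSeq transcription start, 5′ to 3′ on the gene's strand (GRCm38.p6). The Crmp1 locus given above begins at 37241940, inside the first Crmp1 window, and the window of its other start lies within that locus. Part of the first window and all of the other are thus inside the annotated gene. Capitals mark 2 motifs that read the same on both strands, the E-box CANNTG, bound by basic helix-loop-helix factors such as Neurog1 and Neurod1, and the Ebf core CCCNNGGG. An E-box is present in 66.2% of all 32851 promoter windows and the Ebf core in 11.8%.
Dpysl5, chr5:30711314-30711563: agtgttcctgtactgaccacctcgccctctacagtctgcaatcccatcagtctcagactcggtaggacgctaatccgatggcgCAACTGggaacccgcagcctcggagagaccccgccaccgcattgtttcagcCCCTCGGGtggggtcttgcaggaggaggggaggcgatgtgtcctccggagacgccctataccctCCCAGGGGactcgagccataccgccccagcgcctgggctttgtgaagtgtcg
Crmp1, chr5:37241808-37242057: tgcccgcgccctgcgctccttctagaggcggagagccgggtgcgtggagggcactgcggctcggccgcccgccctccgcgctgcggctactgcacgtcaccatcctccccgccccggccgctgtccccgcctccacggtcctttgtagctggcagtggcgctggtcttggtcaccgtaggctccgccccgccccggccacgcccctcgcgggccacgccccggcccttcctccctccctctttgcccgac
Crmp1 from its other start, chr5:37245514-37245763: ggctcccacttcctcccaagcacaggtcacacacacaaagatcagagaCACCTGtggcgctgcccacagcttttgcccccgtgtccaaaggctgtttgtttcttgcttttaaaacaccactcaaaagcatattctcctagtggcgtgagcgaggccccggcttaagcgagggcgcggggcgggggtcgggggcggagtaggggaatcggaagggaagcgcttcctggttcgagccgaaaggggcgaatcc
Stmn3, chr2:181314501-181314750, minus strand: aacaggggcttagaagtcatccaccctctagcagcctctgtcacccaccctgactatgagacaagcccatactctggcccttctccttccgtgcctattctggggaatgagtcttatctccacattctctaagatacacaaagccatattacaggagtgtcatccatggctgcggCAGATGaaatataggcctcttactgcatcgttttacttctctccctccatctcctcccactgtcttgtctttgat
Dpysl5 holds 1 E-box and 2 Ebf cores. The first Crmp1 window holds neither, and its other start and Stmn3 hold 1 E-box each. A match is a run of letters and not a measured site.

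Dpysl3 differed most between the branches. Its level was 688 and 680 CPM in precursors, 777 and 726 CPM in immature apical neurons, 996 and 931 CPM in immature basal neurons, 47.6 and 35.1 CPM in mature apical neurons and 379 and 315 CPM in mature basal neurons. Basal neurons were above apical neurons in both libraries at both stages. The fall on maturation was 17.2-fold in the apical branch (log2 fold change -4.11 ± 0.16, adjusted p = 5.91e-10) and 2.69-fold in the basal branch (-1.43 ± 0.14, adjusted p = 4.29e-06). Mature basal neurons thus exceeded mature apical ones 8.5-fold (log2 fold change of apical against basal -3.09 ± 0.16, adjusted p = 1.25e-08). Dpysl3 rose on entry into the basal branch (0.59 ± 0.13, adjusted p = 0.00820) and in the apical branch the change was 0.18 ± 0.13 (adjusted p = 0.394). Fibroblast-like cells held Dpysl3 at 128 and 128 CPM. In mature basal neurons the fibroblast markers summed to 152 CPM in library 1 and to 9.55 CPM in library 2. Whether such cells had a part in the Dpysl3 level was not tested.

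Ncam1, whose product carries polysialic acid on growing axons, rose on entry into the apical branch and fell on maturation of both. It was at 980 and 1253 CPM in precursors, 1480 and 1722 CPM in immature apical neurons, 1154 and 1401 CPM in immature basal neurons, 709 and 744 CPM in mature apical neurons and 548 and 530 CPM in mature basal neurons. Library 2 exceeded library 1 in 4 of the 5 groups. The apical rise was 1.48-fold (log2 fold change 0.57 ± 0.11, adjusted p = 0.00249), and for the basal branch the change was 0.28 ± 0.11 (adjusted p = 0.103, and 0.00348 with the library as a block). The fall on maturation was 2.12-fold in the apical branch (-1.08 ± 0.11, adjusted p = 4.55e-06) and 2.29-fold in the basal branch (-1.19 ± 0.11, adjusted p = 3.49e-06). Mature neurons kept Ncam1 in both branches.

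Counted over the 10 genes, 5 rose on entry into the apical branch (Gap43, Omp, Stmn3, Stmn4 and Ncam1) where 10.5% of all 13634 genes tested were called higher, and 1 fell (Dpysl5) where 7.53% were called lower. On entry into the basal branch 4 rose (Gap43, Stmn3, Stmn4 and Dpysl3) against 9.40% of all genes, and 1 fell (Dpysl5) against 7.24%. With the library as a block 6 rose and 3 fell in the basal branch. In that fit 1622 of the 13634 genes were called higher and 1314 lower. On maturation 8 of the 10 fell in the apical branch, where 15.5% of all genes were called lower, and 1 rose (Omp) where 17.1% were called higher. The 8 were Gap43, Stmn1, Stmn2, Stmn3, Crmp1, Dpysl3, Dpysl5 and Ncam1. In the basal branch these 8 also fell, against 14.2% of all genes, and Omp rose, against 15.9%. The median log2 change of the 10 genes was -1.24 in the apical and -1.53 in the basal branch, against 0.02 and 0 over all genes. The maturation comparisons share the immature groups with the comparisons on entry.

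**Figure D3:**
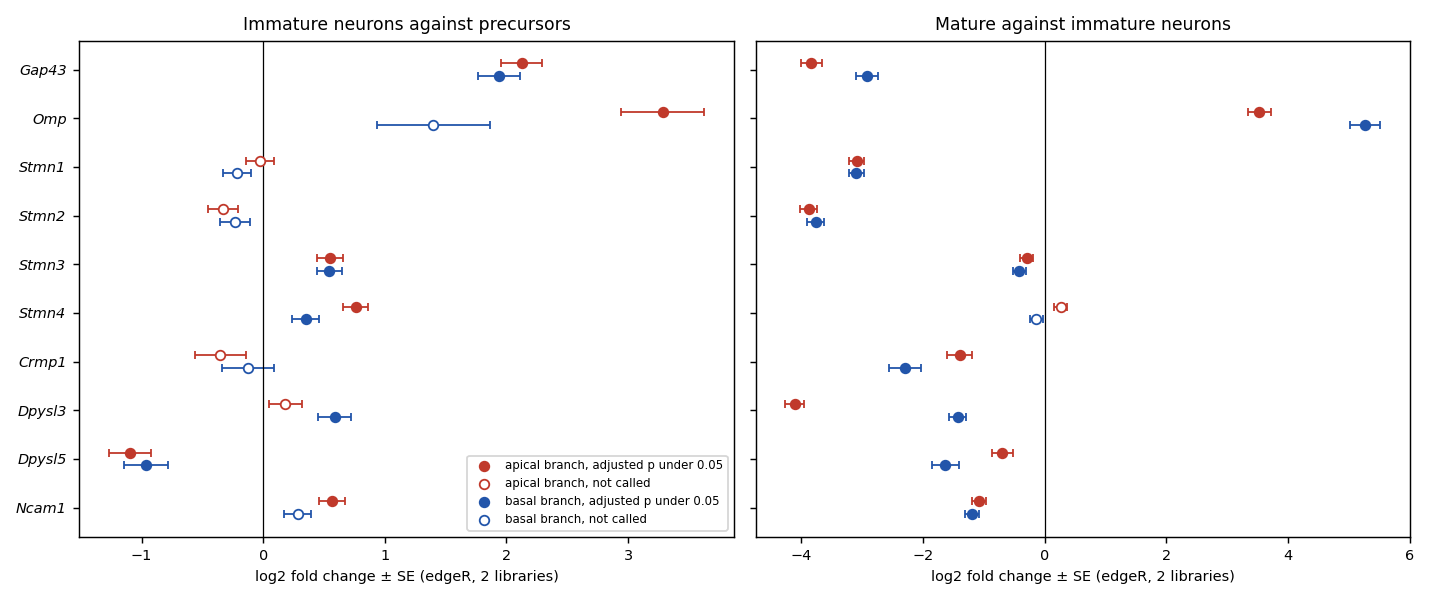
Log2 fold change ± SE (x axis) of each gene (y axis) for immature neurons against precursors (left) and mature against immature neurons (right), apical branch in red and basal branch in blue. Filled points passed an adjusted p of 0.05. On the right Dpysl3 stands at -4.11 in the apical and -1.43 in the basal branch, and Omp at 3.53 and 5.27.

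Between the branches at the immature stage 2 of the 10 genes were called, against 4.83% of all genes, and both were higher in apical neurons. Omp differed by 1.88 ± 0.30 on the log2 scale (adjusted p = 0.00195) and Stmn4 by 0.41 ± 0.11 (adjusted p = 0.0401). Neither call held with the finer clusters, where Omp differed by 0.51 (adjusted p = 0.501) and Stmn4 by 0.24 (adjusted p = 0.354). Stmn4 was also lost under 4 further alternatives (adjusted p between 0.0755 and 0.540). With the library as a block 5 genes passed, among them Dpysl3, lower in apical neurons by 0.40 (adjusted p = 5.17e-04), Stmn1 (0.20, adjusted p = 0.0294) and Ncam1 (0.28, adjusted p = 0.00704). Gap43 differed by 0.19 ± 0.16 (adjusted p = 0.651).

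At the mature stage 5 genes were called, against 9.77% of all genes. Stmn4 and Dpysl3 are given above. Dpysl5 was higher in apical neurons by 0.80 ± 0.21 on the log2 scale (adjusted p = 0.0262), lost with DESeq2 and in a fit of the 2 groups alone (adjusted p = 0.149 and 0.109), and its value was 1.18 without library 1 and 0.43 without library 2. Ncam1 was higher in apical neurons by 0.39 ± 0.11 (adjusted p = 0.0396), the latter lost under 5 of the alternatives (adjusted p between 0.0661 and 0.252). Gap43 was lower in apical neurons by 0.73 ± 0.19 (adjusted p = 0.0238), and this was lost under 3 alternatives, with adjusted p between 0.0521 and 0.605, the weakest being the finer clusters at -0.17. For Omp the difference was 0.14 ± 0.15 (adjusted p = 0.661). With the library as a block 8 genes passed, adding Stmn1 (0.20, adjusted p = 0.0387), Stmn2 (-0.21, adjusted p = 0.0147) and Crmp1 (0.67, adjusted p = 0.0213).

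The difference between the branches in the maturation change itself was called for 2 of the 10 genes, against 1.46% of all genes. Dpysl3 fell by 2.68 ± 0.20 more on the log2 scale in the apical branch (adjusted p = 1.55e-05), and this held under every alternative tested, with values from -2.94 to -2.18. Omp rose by 1.74 ± 0.34 less in the apical branch (adjusted p = 0.0243), but with the finer clusters, where the cluster of 52 cells counted as mature, the difference was -0.33 (adjusted p = 0.748). It also missed the threshold with thinned cells (adjusted p = 0.0608) and with mitochondrial shares of up to 10% (adjusted p = 0.0990). For Gap43 the apical fall was larger by 0.92 ± 0.25 (adjusted p = 0.0969), and its value and call turned on the setting. It passed under 5 alternatives, among them the library as a block (adjusted p = 4.33e-05), but was -0.39 with the finer clusters (adjusted p = 0.500) and -0.55 with mitochondrial shares of up to 10% (adjusted p = 0.332). With the block, smaller falls in the apical branch also passed for Crmp1 (0.89, adjusted p = 0.0401) and Dpysl5 (0.93, adjusted p = 0.0369), where the value for Dpysl5 was 1.42 without library 1 and 0.48 without library 2, and for Crmp1 1.14 and 0.57.

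Other genes of axon growth followed the members in part. Of 9 growth-cone and axon-outgrowth genes tested, 7 fell and 1 rose on maturation of the apical branch, and 7 fell and none rose in the basal branch. Over all genes 15.5% were called lower and 17.1% higher in the apical branch and 14.2% and 15.9% in the basal branch, and the counts of the lists that follow are read against these shares. The median log2 change was -0.87 and -1.63 against 0.02 and 0 over all genes. Dbn1, which encodes the actin-binding drebrin, went from 106.5 and 116 CPM to 8.25 and 10.4 CPM in the apical branch and from 112 and 138 CPM to 1.09 and 5.97 CPM in the basal branch. Marcksl1, a protein kinase C substrate, went from 385 and 301 CPM to 43.4 and 34.2 CPM and from 266 and 195 CPM to 29.5 and 20.3 CPM. Kif5c, a kinesin heavy chain, was among the apical falls (375 and 316 to 73.5 and 72.6 CPM) and Basp1, a growth-cone membrane protein, among the basal ones (1742 and 1812 to 223 and 228 CPM). Fez1 was called higher in mature apical neurons at only 4.71 and 5.53 CPM, with no UMI in immature apical neurons.

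Of 8 tubulins tested, 3 fell on maturation of the apical branch and none rose, and 4 fell and 1 rose (Tubb4b) in the basal branch, with medians of -0.33 and -0.75 against 0.02 and 0 over all genes. Tubb5 had the largest change, from 4347 and 4190 CPM to 173 and 157 CPM in the apical branch and from 5257 and 4974 CPM to 322 and 301 CPM in the basal branch. Tuba1a fell in both branches, in the apical branch to 3458 and 3326 CPM, Tubb2a fell in the apical branch and Tubb4a in the basal branch. Tubulin genes are near-identical in places, so reads may be split among them.

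In the list of CRMP family and semaphorin signalling genes, 9 were tested, of which 3 fell and 1 rose in the apical branch and 2 fell and 1 rose in the basal branch, with medians of -0.32 and -0.38, and the basal counts are near the 14.2% and 15.9% of all genes. Plxna1, a semaphorin co-receptor, rose in both, from 20.2 and 22.9 CPM to 89.1 and 76.8 CPM in apical neurons and from 18.6 and 37.5 CPM to 73.3 and 53.7 CPM in basal neurons. Fyn, a Src-family kinase, fell in both, from 33.1 and 31.9 CPM to 6.60 and 8.79 CPM and from 52.3 and 62.6 CPM to 5.47 and 10.7 CPM. Cdk5r1, the activator of Cdk5, also fell in both and Dpysl4 in the apical branch, each from under 15 CPM.

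Of 8 neural adhesion and polysialylation genes, 3 fell and 1 rose in the apical branch and 2 fell and 1 rose in the basal branch, where 14.2% and 15.9% of all genes did. The medians were -1.10 and -1.96, and the basal median was -1.49 with genes at 0 UMIs in a group set to their bound. St8sia2 and St8sia4, the enzymes that put polysialic acid on Ncam1, had no UMI in either mature group. St8sia4 was at 3.67 and 1.27 CPM in immature apical and 4.65 and 7.15 CPM in immature basal neurons, and St8sia2 was at 10.6 and 8.99 CPM in precursors and at most 2.76 CPM in immature neurons. Both were called lower in the apical branch and St8sia4 in the basal branch. Cntn1, a contactin, rose in both, to 82.7 and 84.6 CPM in mature apical and 49.2 and 52.5 CPM in mature basal neurons, and Fgfr1, a receptor that Ncam1 engages, fell in both.

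Of 10 synaptic vesicle genes, 6 rose and 1 fell in the apical branch and 5 rose and 1 fell in the basal branch, with medians of 1.11 and 1.03, read against the same shares and medians of all genes. Syp, which encodes synaptophysin, went from 62.4 and 57.3 CPM to 251 and 276 CPM in apical neurons and from 68.6 and 57.2 CPM to 340 and 338 CPM in basal neurons. Syn1 and Sv2a also rose in both branches and Stx1a fell in both. Calmodulin binds Gap43 and protein kinase C phosphorylates it, though not every gene on the list named for them encodes one of them. Of the 9 genes on this list, 6 rose and 2 fell in the apical branch. In the basal branch 4 rose, 5 were not called and none fell. The medians were 0.87 in the apical and 0.70 in the basal branch. The apical falls were Nrgn and Prkce, each at under 13 CPM in immature neurons. Calm2 went from 1335 and 1076 CPM to 3927 and 3318 CPM in apical neurons, and Prkcb rose in both branches.

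The 10 genes of mature olfactory neurons did not all follow Omp. In the apical branch 5 rose and 3 fell, and in the basal branch 4 rose and 3 fell, with medians of 1.72 and 0.01. Over all genes 17.1% rose and 15.5% fell in the apical and 15.9% and 14.2% in the basal branch. The basal median was 1.01 with genes at 0 UMIs in a group set to their bound. Gfy, which encodes a Golgi protein of olfactory neurons, rose in both, from 461 and 431 CPM to 2470 and 2146 CPM and from 349 and 365 CPM to 1773 and 1634 CPM. Gng13, a G protein gamma subunit, rose to 1583 and 1536 CPM in mature apical neurons and to 80.9 and 87.1 CPM in mature basal neurons. The 3 that fell in each branch were Bex1, Bex3 and Bex4, of the brain-expressed X-linked family, of which Bex1 is known as a binding partner of Omp. Bex1 went from 123 and 115 CPM to 7.54 and 5.53 CPM in the apical branch and from 158 and 147 CPM to 1.09 and 9.55 CPM in the basal branch.

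On entry into the apical branch 3 of the 8 tubulins rose and 2 fell, where 10.5% of all genes were called higher and 7.53% lower. Of the 9 growth-cone genes 4 fell and none rose in the apical branch, where Gap43 rose. In the basal branch 2 fell and 1 rose, where 7.24% of all genes were called lower and 9.40% higher.

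The pattern of each marker over the 10 sums of 5 groups and 2 libraries was compared with 6154 genes at a mean of at least 20 CPM. The 5 genes most like Gap43, by Pearson's r of log2(CPM + 1), were Rpl13a, Rac3, Lmo2, Senp6 and Mturn, with r between 0.974 and 0.980. Lmo2, a transcription co-factor, was at 241 and 234 CPM in immature apical neurons against 3.54 and 0.65 CPM in mature ones, whereas Rpl13a, a ribosomal protein gene, ranged only from 353 to 529 CPM. Those most like Omp were Them6, Rnasek, Gpn3, Ndufv3 and Nrn1l, with r between 0.992 and 0.994. Nrn1l was at 1.06 and 3.37 CPM in precursors and at 711 and 697 CPM in mature basal neurons. Sums of the same library share their cells' source, and no test was made.

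Outside the lineage the 10 genes were low, with named exceptions. Stmn2 was at 496 and 465 CPM in the 343 sustentacular-like cells, the supporting cells of the epithelium, which is near its level in mature neurons, against 12.5 and 11.9 CPM in macrophage-like cells. Ncam1 was at 515 and 516 CPM and Stmn1 at 385 and 350 CPM in the 72 olfactory ensheathing-like cells, the glia of the olfactory nerves. Dpysl3 was at 128 and 128 CPM in fibroblast-like cells and at 130 and 138 CPM in sustentacular-like cells, above its level in mature apical neurons. Crmp1 reached 36.0 and 21.7 CPM in T cell-like cells, close to mature basal neurons. Gap43 was at no more than 15.5 CPM and Omp at no more than 29.3 CPM in any other named class and library.

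**Figure D4:**
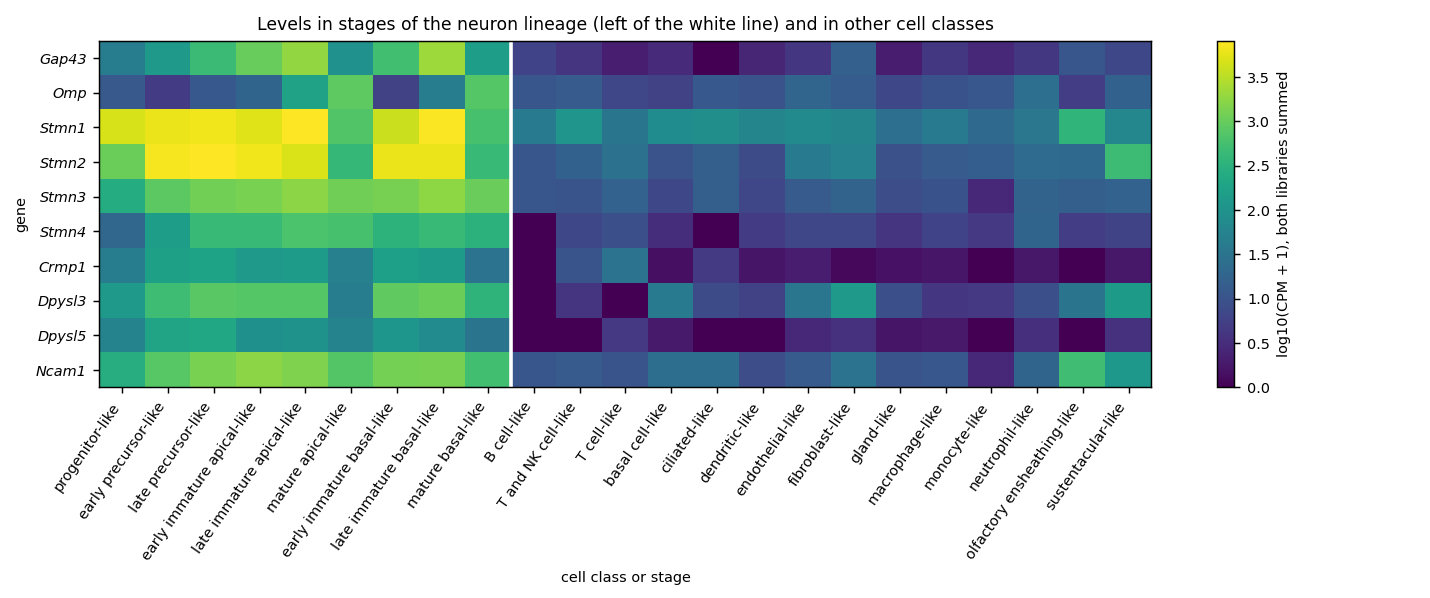
Levels of the 10 genes (rows) in the stages of the neuron lineage, left of the white line, and in other cell classes (columns), as log10(CPM + 1) with both libraries summed. Stmn2 in sustentacular-like cells, Ncam1 in olfactory ensheathing-like cells and Dpysl3 in fibroblast-like cells stand out on the right, at 481, 516 and 128 CPM.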

How the data were processed

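Whole VNO suspensions were profiled as 2 libraries of 10x 3′ single-cell RNA-seq. The authors deposited raw UMI counts per gene and barcode (32285 genes, 24084 barcodes) made with Cell Ranger 4 on mm10, and their processing notes also name Seurat 3.2.3. Barcodes needed 200 to 9000 genes and a mitochondrial share of no more than 5%, counted over genes present in 3 cells or more. Scrublet (scanpy 1.11.5) called 68 and 104 cells doublets, which were left out only in an alternative. The libraries shared 3 barcodes among kept cells. Clusters (Seurat 5.3.0, 2000 variable genes) were named from markers. 132 lineage cells stayed outside the stages and 2221 cells were left unnamed.

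UMIs were summed per library and group. The 13634 genes of at least 10 UMIs were tested with edgeR 4.0.16 (quasi-likelihood, TMM, Benjamini-Hochberg threshold of 0.05, all 5 groups in 1 fit). The same fit was also run on counts simulated from the means and common spread of these data, without a library effect. DESeq2 1.42.0 was an alternative. Equal replicate numbers mark sums from 1 library, and deviations from the group means correlated at r = 0.0402 to 0.252 in all 10 pairs. In each group a chi-square test found the libraries further apart than counting error (1.91 to 4.94 per degree of freedom). Within each of the 7 gene lists and each direction of maturation, up to 3 genes with the largest called change were named, besides the 5 genes most like Gap43 and Omp, and 1 gene that this rule names is not reported here. The members and lists were chosen with earlier results of these data known.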

Additional observations from a re-analysis of the deposited data

Results flagged for a closer look

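The maturation change differed between the branches, by the test of the difference itself, for Dpysl3 and Omp. For Dpysl3 the apical log2 change minus the basal one was -2.682, with levels of 47.6 and 35.1 CPM in mature apical and 379 and 315 CPM in mature basal neurons. For Omp it was -1.742, and it was -0.33 with the finer clusters of the lineage.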

How the results depend on the processing

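Across the 7 comparisons, the rise and fall of Gap43, the rise of Omp on maturation and the falls of Stmn1, Stmn2, Crmp1, Dpysl3, Dpysl5 and Ncam1 on maturation passed the threshold under each of the 10 alternatives that gave a test. With the library as a replicate block, 9 of the 10 genes were called for immature basal neurons against precursors. Calls numbered 5 between the immature branches, 8 between the mature branches and 5 for the maturation change between branches. Over all genes these comparisons had 2936, 1177, 2267 and 653 calls. Apart from these comparisons and the calls given with the block in the report, the block changed no call of the 10 genes. DESeq2 called 1451, 1360, 2723 and 2709 genes on entry (apical, basal) and maturation (apical, basal), and 433 and 715 between the immature and the mature branches. With cells thinned to 5000 UMIs the counts were 1483 and 1323 on entry, 2447 on basal maturation, 433 and 645 between branches and 75 for the maturation change, with fewer UMIs and fewer genes tested. Without the filter on low counts 470 genes were called for the maturation change, among them 5 of the 10. Between the immature branches DESeq2, thinning and mitochondrial shares of up to 10% each called 1 of the 10 genes and the finer clusters called 0. Over all genes the mitochondrial setting called 723 of 14054 and the finer clusters 695 of 13601 at the same adjusted threshold. With the finer clusters 2168 genes had an unadjusted edgeR p under 0.05. Between the mature branches 3 of the 10 were called by DESeq2, by mitochondrial shares of up to 10% and by the compared groups alone. Over all genes the last 2 settings called 1471 of 14054 and 1300 of 12295. For the maturation change 1 of the 10 was called with mitochondrial shares of up to 10% and with the finer clusters. These settings called 186 of 14054 and 208 of 13601 genes. The cause was not tested.

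With both libraries in the fit, changes of sign were limited to differences that no test called in either fit. For Stmn1, immature apical against precursors was 0.024 with mitochondrial shares of up to 10% and 0.034 with the finer clusters, mature apical against basal was -0.039 with all variable genes kept in clustering, and the maturation change between branches was -0.00073 with the block, -0.048 with DESeq2, -0.049 with RLE size factors, -0.12 with thinned cells, -0.043 with all variable genes kept and -0.0099 with the compared groups alone. For Stmn2, the finer clusters gave 0.0092 between immature and 0.21 between mature branches and 0.20 for the maturation change, which was 0.0016 with mitochondrial shares of up to 10%. For Stmn3 between immature branches the values were -0.010 with DESeq2, -0.0090 with RLE size factors, -0.017 with mitochondrial shares of up to 10%, -0.010 with the finer clusters and -0.0066 with the compared groups alone. With all variable genes kept in clustering, Stmn4 on basal maturation was 0.0083 and Dpysl3 on apical entry -0.057. For Ncam1 the maturation change between branches was -0.013 with mitochondrial shares of up to 10% and -0.038 with thinned cells. With 1 library left out no spread remained to test against, and only values were computed. Among differences not called, signs turned without library 1 for Stmn1 on apical entry (0.11) and for its maturation change (-0.17), and without library 2 for Crmp1 on apical (0.049) and basal (0.12) entry, for Gap43 (-0.050), Stmn1 (-0.023) and Stmn3 (-0.13) between immature branches and for Omp between mature branches (-0.0092).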

Other observations

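Omp and Gap43 were also counted in clusters that no marker list named. A cluster of 291 cells with a median of 28343 UMIs held Omp at 681 and 697 CPM and Gap43 at 74.7 and 81.7 CPM. A cluster of 333 cells with a median of 1122 UMIs held Omp at 490 and 404 CPM and Gap43 at 102 and 163 CPM. A cluster of 614 cells with a median of 1018 UMIs held Gap43 at 181 and 169 CPM and Omp at 173 and 205 CPM. None of these cells entered the mature or immature groups. In progenitor-like cells Omp had no UMI in library 1 and stood at 33.9 CPM in library 2, where 3 of 29 cells held it.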
